A study of Mus musculus with 2 samples.

Results

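Mt1 and Mt2 are the metallothionein genes that most mouse tissues express, and they were followed here through the leukocytes of the adrenal gland. Both were named as members by gene symbol (Mt1, ENSMUSG00000031765 and Mt2, ENSMUSG00000031762), 2 of the 32285 genes counted, and no threshold on a measured value chose them. CD45+ cells, the leukocytes of a tissue, had been sorted from adrenal glands of C57Bl/6 mice aged 7 weeks, with no treatment named, and read out by droplet-based sequencing of single-cell RNA, as 1 library from female and 1 library from male mice. The glands of both groups were freed of fat, minced and digested with Liberase and DNAse I at body temperature, and dead cells were left out by a DAPI stain. How many animals stood behind each library was not given, so a difference between the libraries cannot be told apart from a difference between animals, and no p-value is given.

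Metallothioneins are short, cysteine-rich proteins that bind zinc and copper ions and buffer them inside the cell. Their genes are switched on by metal through the zinc sensor MTF1, which binds short metal response elements before the genes, and they also respond to glucocorticoids and to oxidative stress. The adrenal gland is where glucocorticoids are made, by the cells of its cortex, and its macrophages sit beside these cells. The family has 4 genes in the mouse. Mt3 is known from the brain and Mt4 from stratified epithelia.

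The 4 genes lie side by side on chromosome 8 in the GRCm38 build, in the order Mt4, Mt3, Mt2 and Mt1, and all are read from the plus strand. Mt2 spans chr8:94172664-94173568 and Mt1 spans chr8:94179082-94180327, with 5513 bases between them. Each has 3 exons in its main transcript, of 511 bases for Mt2 and 549 bases for Mt1, and each codes for 61 amino acids. Their coding sequences are the same at 148 of 186 bases (79.6%), but no stretch of 55 bases is shared between the transcripts of both genes or with another annotated gene, so reads of that length could be told apart. An antisense gene on the other strand, Gm45774, overlaps most of Mt2 and held 2 UMIs in the female and 1 UMI in the male cells.

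Words of known regulatory elements were searched for on both strands in the 250 bases before each start codon, because the annotated first exons begin upstream of the TATA box (229 bases before the start codon in Mt1 and 184 in Mt2). The core of the metal response element, TGCACNC or TGCGCNC, was found at 5 places before Mt1 and at 4 before Mt2. In the windows around all 32851 RefSeq starts, which reach from 250 bases before to 50 after the start and are thus longer than the stretches searched above, 3 or more such words stood in 1.97% of windows and 4 or more in 0.517%, and the windows of Mt1 and Mt2 held 3 and 4. The TATA box word TATAAA stood once before each gene, and the core of the antioxidant response element, TGACNNNGC, once before Mt1 and not before Mt2. In the RefSeq windows, which begin further upstream, the antioxidant word stood in that of Mt2 and not in that of Mt1, and 12.4% of all windows hold it. The full palindrome of the glucocorticoid response element was found before neither gene, and 3 of all windows hold it. The following 27 to 29 bases show 3 of the matches of each gene, chosen because they do not overlap, with the matched word in capitals, read on the plus strand (bases from the RefSeq promoter table and the GENCODE transcripts, build GRCm38).
Mt1, metal response element core, chr8:94179081-94179107: cagggagctcTGCACTCcgcccgaaaa
Mt1, antioxidant response element core, chr8:94179131-94179159: gcggggcgcgTGACTATGCgtgggctgga
Mt1, metal response element core on the minus strand, chr8:94179163-94179189: accgcctgctGGGTGCAaaccctttgc
Mt2, metal response element core on the minus strand, chr8:94172612-94172638: aattcgggtcGTGCGCAggcccagggg
Mt2, metal response element core on the minus strand, chr8:94172666-94172692: gaaaaagggcGTGTGCAggcggcgggg
Mt2, metal response element core, chr8:94172719-94172745: gcggagctttTGCGCTCgacccaatac
The first Mt2 match lies before the annotated start and the other 5 lie in the annotated first exons. A match is a description of letters, and occupancy was not measured.

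After filtering, 3694 female cells with 15045146 UMIs (unique molecular identifiers, each standing for 1 captured transcript) and 2449 male cells with 9035910 UMIs were compared (median depth 3489.5 and 3008). 2 barcodes occurred in both libraries. Xist was detected in 75.7% of female and 0.0817% of male cells, and Ptprc, which encodes CD45, in 83.3% and 76.1%. The 21 clusters gave named classes for 97.9% of female and 93.8% of male cells. The names were rebuilt from marker genes and are to be read as macrophage-like, monocyte-like and so on. Neither Mt1 nor Mt2 was among the genes used for clustering, so their levels did not make the classes. Levels are counts-per-million values (CPM), the UMIs of a gene scaled to the summed UMIs of a class, and all intervals are 95% intervals that cover counting error only.

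Mt1 stood highest in macrophages, in Cd209a-led dendritic cells and in a few mast-cell-like cells. In all, 2721 female and 2498 male UMIs of Mt1 were counted, in 805 and 774 cells. Macrophages were 22.3% of the female cells and held 78.9% of these UMIs, whereas B, T and natural killer (NK) cells were 56.1% of the female cells and held 3.42%. The main macrophage population, made up of the clusters that remain once the Lyve1-high and the Aldh1a2-high cells are set aside (here other macrophages, 638 female and 530 male cells), stood at 667 CPM in the female (638 to 698) and 670.2 in the male library (637 to 705). Lymphocytes stood at 10.6 (8.56 to 13.0) and 12.4 (9.25 to 16.3), so other macrophages were 62.9-fold (51.1 to 78.4) and 54.0-fold (40.8 to 72.8) higher. Of all genes tested in the same way, 20.7% were higher in other macrophages than in lymphocytes in the female and 20.3% in the male library, by at least 1.5-fold with an interval that leaves out 1.

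**Figure D1:**
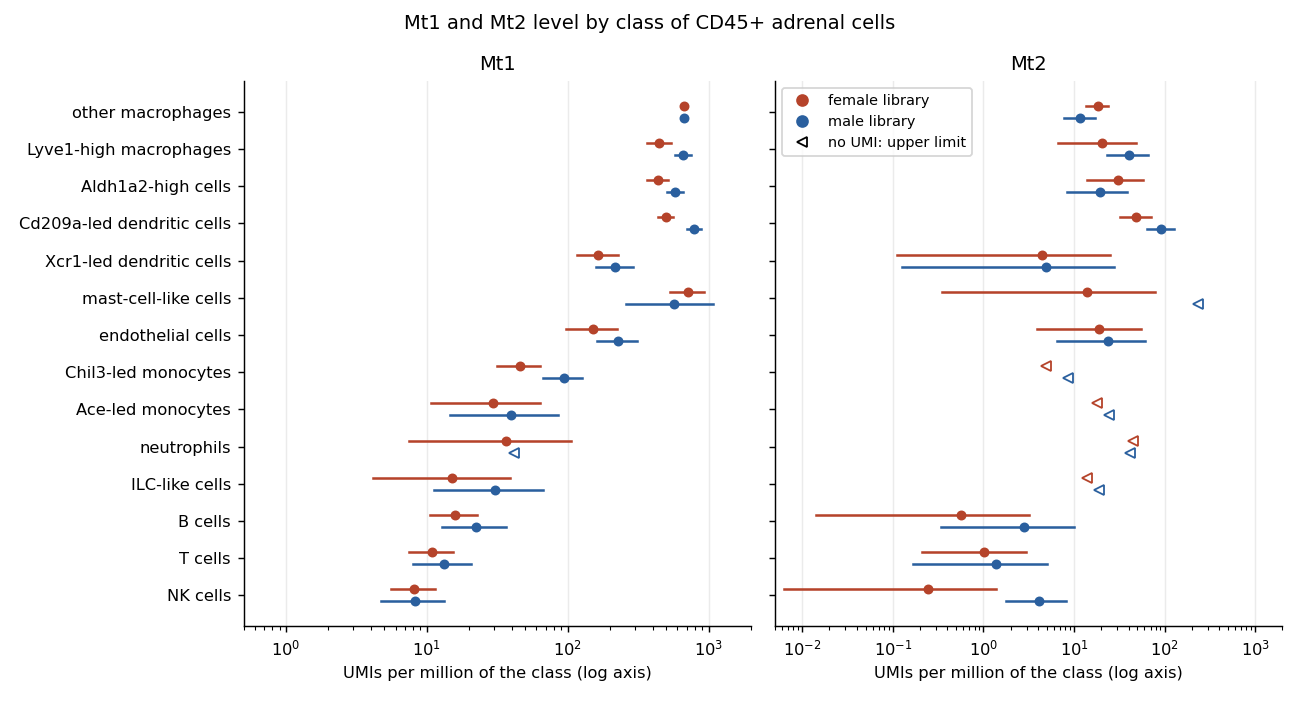
Level of Mt1 (left) and Mt2 (right) in CPM on log axes, for 14 classes or subsets of cells in the female (red) and male (blue) library. Points are levels of summed counts, lines are exact Poisson 95% intervals, and open triangles mark the upper limit where no UMI was counted. Mt1 stands at 667 and 670.2 in other macrophages and at 10.9 and 13.2 in T cells, and Mt2 reaches its highest level in Cd209a-led dendritic cells of the male library, at 91.4.

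Dendritic cells split by kind. The cluster led by Cd209a, a C-type lectin of type 2 conventional and monocyte-derived dendritic cells (132 female and 85 male cells), held Mt1 at 495 (439 to 556) and 788 CPM (699.9 to 883). The cluster led by Xcr1, the chemokine receptor of type 1 conventional dendritic cells (41 and 36 cells), held it at 164 (116 to 227) and 217 (158 to 292). The former was thus 3.01-fold (2.13 to 4.37) and 3.63-fold (2.63 to 5.10) above the latter. The share of cells with any Mt1 UMI differed less before the depths were made equal, at 45.5% and 58.8% of Cd209a-led cells (median depth 3832 and 4119) and 43.9% and 55.6% of Xcr1-led cells (5466 and 5122.5), and was 20.9% and 39.0% against 14.6% and 13.9% once 1000 UMIs were drawn from each cell. Set against other macrophages, the Cd209a-led cells were lower in the female library (0.742-fold, 0.653 to 0.841) and higher in the male library (1.18-fold, 1.03 to 1.33). Without the 5 cells richest in both genes in each class these ratios were 0.518 and 0.849, so that the male value changed side. The 5 cells are a larger part of the Cd209a-led cells than of other macrophages, which by itself lowers these ratios.

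Mast-cell-like cells, few in number, reached the macrophage level. They stood at 711 (529 to 934; 51 UMIs in 24 cells) in the female and at 565 CPM (258 to 1073; 9 UMIs in 6 cells) in the male library, within counting error of other macrophages in both. Of the 51 female UMIs, 68.6% came from 5 cells. Without the 5 richest cells of each class the ratio to other macrophages was 0.539 (0.307 to 0.878). That step takes 5 of 24 mast-cell-like cells but a far smaller part of other macrophages, which by itself lowers the ratio. The markers of cortical cells, described with free RNA further on, were also high in them, at 585 CPM (Star, Cyp11b1 and Hsd3b1 at 0) and 879 (Star and Cyp11b1 at 0). The median mitochondrial share was 5.20% and 6.26%, against 2.93% and 2.82% in other macrophages. The part of either in the Mt1 level was not tested. The innate lymphoid cells that shared a cluster with them, and that were separated from them by the number of markers detected, stood at 15.1 (4 UMIs) and 30.7 (6 UMIs). That separation was chosen once the clusters were known, and 9 female and 11 male cells lay near it.

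Monocytes, from which macrophages of the gland can arise, held little Mt1. Their level was 42.2 (30.1 to 57.4) in the female and 79.2 CPM (58.0 to 106) in the male library, so that other macrophages were 15.8-fold (11.6 to 22.2) and 8.46-fold (6.31 to 11.6) higher. The Chil3-led classical monocytes stood at 45.8 and 93.4, and the Ace-led patrolling monocytes at 29.3 and 39.5, a difference within counting error in each library (ratio 1.56, 0.649 to 4.56, and 2.37, 0.997 to 6.83). In the male monocytes, 67.4% of the 46 UMIs lay in 5 cells. Without the 5 richest cells of each class other macrophages were 26.7-fold (female) and 23.9-fold (male) above monocytes.

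Among the remaining classes, endothelial-like cells stood at 151 (96.8 to 225) and 227 (161 to 311), with intervals that overlapped those of the Xcr1-led dendritic cells in both libraries. B cells stood at 15.8 and 22.3, T cells at 10.9 and 13.2 and NK cells at 8.11 and 8.21, with overlapping intervals between B and T cells and between T and NK cells in both libraries. Neutrophils gave 3 female UMIs and 0 male UMIs (upper limit 41.5 CPM), and plasmacytoid dendritic cells 1 UMI in each library. With neutrophils, innate lymphoid, plasmacytoid dendritic, cycling and unnamed cells left aside, the order of the levels in the female library was mast-cell-like, other macrophage, Cd209a-led, Lyve1-high and Aldh1a2-high, Xcr1-led, endothelial, monocyte and then lymphocyte. In the male library Cd209a-led cells came first, followed by other macrophages, Lyve1-high, Aldh1a2-high and mast-cell-like cells, then endothelial and Xcr1-led cells, monocytes and lymphocytes. Neighbours in the female order whose intervals overlapped were mast-cell-like and other macrophages, Cd209a-led and Lyve1-high cells, Lyve1-high and Aldh1a2-high cells, and Xcr1-led and endothelial cells. In the male order the intervals of the first 5 overlapped from each to the next (699.9 to 883, 637 to 705, 581 to 743, 504 to 652 and 258 to 1073), as did those of mast-cell-like and endothelial cells and of endothelial and Xcr1-led cells. Of these male neighbours, Cd209a-led cells and other macrophages had a ratio whose interval left out 1, as given above, on the higher side only while the 5 richest cells were kept.

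RNA set free from broken cells can place UMIs in any droplet, and a draw to equal depth does not remove them. The share of cells with an Mt1 UMI was compared after drawing 1000 UMIs at random from each cell, which removes differences in depth. In that draw 45.8% of 629 female and 47.5% of 526 male other macrophages held an Mt1 UMI, against 3.02% and 4.82% of monocytes and 0.836% (17 of 2033) and 1.22% (12 of 983) of lymphocytes. Without the draw the shares were 77.4% and 81.3% in other macrophages, at median depths of 3980.5 and 3523, and 2.90% and 3.36% in lymphocytes, at 3707 and 3808. Lymphocytes, which are not known for high metallothionein levels at rest, are given for comparison. Whether their share equals the background of macrophage droplets was not tested.

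The 5 marker genes of cortical cells (Star, Cyp11a1, Cyp11b1, Cyp21a1 and Hsd3b1, the enzymes and carrier of steroid synthesis), did not keep a fixed ratio to Mt1. Mt1 gave 3.15 (2.87 to 3.46) and 3.75 (3.35 to 4.20) UMIs per cortical UMI in other macrophages. In Cd209a-led dendritic cells the ratio was 8.35 (5.84 to 12.3) and 13.3 (8.63 to 21.6). It was 0.528 and 0.580 in lymphocytes, 0.50 and 0.767 in monocytes and 0.0854 and 0.494 in endothelial cells. The summed level of the 5 markers was 212 and 179 CPM in other macrophages, 59.3 and 59.1 in Cd209a-led cells, 20.1 and 21.4 in lymphocytes, and 1769 and 460 in endothelial cells, and all 5 were detected in each of these classes. In mast-cell-like cells the ratio was 1.21 (0.791 to 1.87) and 0.643 (0.245 to 1.59). Across these classes the cortical markers and Mt1 went together in some, both being higher in other macrophages than in lymphocytes, and apart in others, as in endothelial cells. The part of free RNA in the Mt1 levels was not tested.

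Mt2 was counted far less often, and its order was not that of Mt1. Only 104 female and 103 male UMIs were counted, in 63 and 66 cells. Other macrophages stood at 18.2 (13.6 to 23.8; 52 UMIs) and 11.8 CPM (7.69 to 17.3; 26 UMIs), and lymphocytes at 0.570 (0.185 to 1.33; 5 UMIs) and 2.92 (1.51 to 5.11; 12 UMIs). Cd209a-led dendritic cells exceeded both, at 48.8 (32.4 to 70.6; 28 UMIs) and 91.4 (63.3 to 128; 34 UMIs), which was 2.69-fold (1.63 to 4.33) and 7.76-fold (4.52 to 13.5) the level of other macrophages. Endothelial-like cells (18.9 and 23.9), Aldh1a2-high cells (30.4 and 19.3) and Lyve1-high cells (20.5 and 40.4) were also numerically above other macrophages. Xcr1-led cells held 1 UMI in each library. A few rich cells carried much of the difference: 67.9% of the female and 76.5% of the male Mt2 UMIs of the Cd209a-led cells lay in 5 cells, and without the 5 richest cells of each class the ratio to other macrophages was 1.5 (0.661 to 3.11) and 2.63 (1.07 to 5.94).

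No Mt2 UMI was counted in monocytes, where 0 of 298 female and 0 of 178 male cells held one (upper limits of 3.89 and 6.35 CPM). The floor of 3 counts in female monocytes was 3.16 and in male monocytes 5.17 CPM. Neutrophils, innate lymphoid cells, plasmacytoid dendritic cells and cycling cells gave 0 UMIs as well, with upper limits between 10.1 and 182 CPM that leave a macrophage-like level open to most of them. Of the 12 male lymphocyte UMIs, 8 lay in 4 cells of the NK cluster led by Prf1, the perforin gene.

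The share of Mt2 among the UMIs of both genes differed between classes, though some of the shares rest on a few rich cells. Each captured transcript gives 1 UMI whatever its length, and the share is compared only between classes. Over all cells it was 3.68% (3.02 to 4.44) in the female and 3.96% (3.24 to 4.78) in the male library. It was low in other macrophages with high MHC class II transcripts, at 1.40% (19 Mt2 and 1338 Mt1 UMIs) and 1.45% (21 and 1425), and 5.48% (3.80 to 7.61) and 8.62% (2.86 to 18.98) in those with low MHC class II transcripts. It was 8.97% (28 Mt2 and 284 Mt1 UMIs) and 10.4% (34 and 293) in Cd209a-led dendritic cells, whose odds of a UMI being Mt2 were 3.61-fold (2.16 to 5.94) and 6.60-fold (3.78 to 11.6) those in other macrophages. Endothelial-like cells gave 3 Mt2 beside 24 Mt1 UMIs and 4 beside 38 (odds 4.58, 0.856 to 15.8, and 5.98, 1.44 to 18.5). Other macrophages against all other cells had odds of 0.426 (0.282 to 0.644) and 0.232 (0.142 to 0.370). Xcr1-led dendritic cells gave 2.63% and 2.22%, from 1 Mt2 UMI in each library. The odds in Cd209a-led against Xcr1-led cells were 3.64 (0.566 to 153) and 5.09 (0.809 to 212), so a difference between the kinds of dendritic cell was not detectable at this depth. Lymphocytes gave 5.10% (1.68 to 11.5; 5 Mt2 UMIs) in the female and 19.05% (10.2 to 30.9; 12 Mt2 UMIs) in the male library, the latter numerically above the Cd209a-led cells. Without the 5 richest cells of each class, Cd209a-led cells kept 10 Mt2 beside 175 Mt1 UMIs in the female and 9 beside 184 in the male library, and other macrophages 34 beside 1722 and 22 beside 1394. The other macrophages with low MHC class II then kept 14 beside 386 and 0 beside 10, so their male share rests on those 5 cells.

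**Figure D2:**
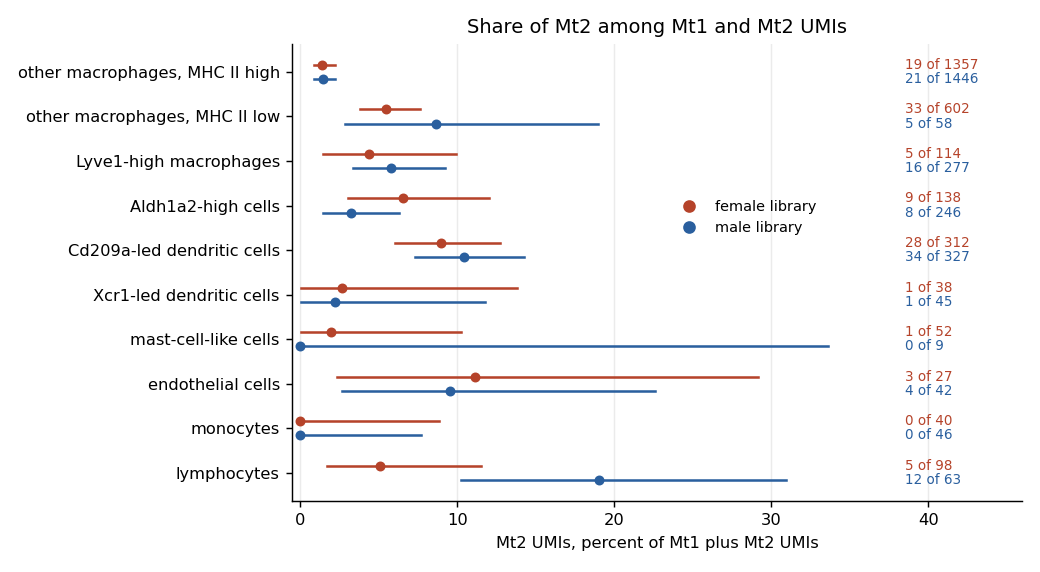
Mt2 UMIs as a percent of Mt1 plus Mt2 UMIs (horizontal axis) in 10 classes or subsets, female library in red and male in blue, with exact binomial 95% intervals and the counts at the right. The share is 1.40% and 1.45% in other macrophages with high MHC class II and 8.97% and 10.4% in Cd209a-led dendritic cells.

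Macrophages were then examined by subset, since the study asked how adrenal gland macrophages differ between the sexes. The Lyve1-high subset, led by Folr2, Fcna and Lyve1 and known as a perivascular type, held Mt1 at 447 (367 to 539; 109 UMIs in 97 cells) in the female and 658 CPM (581 to 743; 261 UMIs in 169 cells) in the male library. Relative to other macrophages this was 0.670-fold (0.547 to 0.813) and 0.982-fold (0.858 to 1.12). In the same comparison 23.9% of all genes tested lay beyond 1.5-fold in the female and 34.9% in the male library. Mt1 lay beyond it in neither, but its female value was near the bound and its side depended on the setting. It was past the bound at 0.593 with a mitochondrial ceiling of 5%, 0.656 with no ceiling, 0.665 in cells of at least 1000 UMIs, 0.633 as a mean over cells and 0.612 without the 5 richest cells of each class. It was short of the bound at 0.672 with doublets kept, 0.686 with mitochondrial UMIs left out of the total and 0.759 with classes from a per-cell marker gate. Mt2 stood at 20.5 (5 UMIs) and 40.4 (16 UMIs), 1.13-fold (0.352 to 2.81) and 3.43-fold (1.72 to 6.64) the level of other macrophages, the male value being past 1.5-fold from fewer than the 50 UMIs that a gene needed to be counted in those percentages.

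Lyve1-high cells also stood apart in depth, mitochondrial share and cortical markers, in both libraries. Their median depth was 1749 and 1896 UMIs, their median mitochondrial share 5.50% and 5.75% against 2.93% and 2.82% in other macrophages, and the cortical markers 439 and 368 CPM. All 5 cortical markers were detected in them, and of the 5 chromaffin cell markers 3 were detected. The part of these differences in the Mt1 and Mt2 values was not tested. Mt1 per cortical UMI was 1.02 and 1.79, between the values of other macrophages and lymphocytes.

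The Aldh1a2-high cells were led by Lyz1, Retnla, Fn1 and Ear2 and held macrophage markers at low levels. C1qa stood at 553 and 589 CPM against 5623 and 5684 in other macrophages, and Mertk at 16.9 and 21.7 against 109.8 and 93.3. They are therefore named by their leading genes only, and they stay counted among all macrophages (87 of 822 female and 98 of 797 male cells). Their Mt1 level was 435 (363 to 517) and 574 (504 to 652), 0.652-fold (0.541 to 0.780) and 0.857-fold (0.744 to 0.984) that of other macrophages, where 31.7% and 37.5% of all genes tested lay beyond 1.5-fold. Mt2 stood at 30.4 (9 UMIs) and 19.3 (8 UMIs), within counting error of other macrophages (1.67, 0.723 to 3.42, and 1.64, 0.642 to 3.73). The female Mt1 ratio was past the bound and the male ratio was not. The female ratio fell short of the bound at 0.682 with doublets kept, 0.827 (0.710 to 0.959) with classes from the per-cell marker gate and 0.949 (0.634 to 1.41) with a mitochondrial ceiling of 1.2%. The male ratio had an interval that includes 1 with the gate (0.996, 0.879 to 1.12) and with that ceiling (0.888, 0.671 to 1.18), so a lower Mt1 level there depended on how the cells were chosen. The Mt2 share was numerically higher than in other macrophages (6.52% and 3.25% against 2.65% and 1.73%), the odds leaving out 1 in the female library (2.56, 1.08 to 5.39) and not in the male one (1.91, 0.739 to 4.41).

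The other macrophages consisted of 3 clusters. Mt1 stood at 702 and 835 CPM in the cluster led by Aif1, at 613 and 592 in that led by C1qa and Tmem119, and at 744 and 641 in that led by Ms4a7 and Mmp12. Mt1 was highest in the Ms4a7-led cluster of the female library (680.4 to 813), where the interval overlapped that of the Aif1-led cluster (643 to 764), and in the Aif1-led cluster of the male library (763 to 911). Mt2 was at 11.8 (9 UMIs) and 3.33 (2 UMIs) in the Aif1-led cluster, 22.4 (32 UMIs) and 13.3 (14 UMIs) in the C1qa-led cluster, and 16.4 (11 UMIs) and 18.1 (10 UMIs) in the Ms4a7-led cluster. The Aif1-led cells therefore had a low Mt2 share in both libraries, 1.66% and 0.397%.

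MHC class II divides the macrophages of female glands, and Mt2 differed across that divide more than Mt1. Other macrophages with low MHC class II transcripts were 162 of 629 female but 17 of 526 male cells at the depth of the draw. Mt2 stood at 44.0 (30.3 to 61.8; 33 UMIs) in low and 9.03 CPM (5.44 to 14.1; 19 UMIs) in high cells of the female library, a ratio of 4.87 (2.69 to 9.07). The male values were 74.0 (5 UMIs) and 9.82 (21 UMIs), a ratio of 7.53 (2.22 to 20.5). Mt1 differed by 1.19-fold (1.08 to 1.32; 759 against 636) and 1.18-fold (0.877 to 1.55; 784 against 667). Of all genes tested, 9.76% lay beyond 1.5-fold between low and high cells in the female and 8.52% in the male library, a background for genes with at least 50 UMIs, a number that Mt2 did not reach in either library.

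This Mt2 difference leaned on a small number of cells. In the female MHC class II low cells 5 cells held 66.7% of the Mt2 UMIs and 32.2% of the Mt1 UMIs, and 1 cell alone gave 75 UMIs of Mt1. Without the 5 richest cells of each group the Mt2 ratio was 2.25 (1.04 to 4.79) in the female library, and in the male library no Mt2 UMI was left in the low cells. The Mt1 ratio became 0.898 (0.799 to 1.01) and 0.574 (0.275 to 1.06). The 5 cells are a larger part of the low groups (162 against 467 female and 17 against 509 male cells). Leaving them out therefore lowers the low groups more, and no difference is read from a ratio below 1. Across cells at the depth of 1000 UMIs, an Mt2 UMI was found in 5.56% of the female low cells (9 of 162) and 0.857% of the high cells (4 of 467). Averaged over all possible draws these shares were 3.62% and 1.01%. In the male library 0 of 17 low cells and 1.18% of the high cells (6 of 509) held an Mt2 UMI in the draw, and the averages over all possible draws were 3.48% and 1.08%.

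Cells of a population differed in Mt1, widely in some groups and little more than by chance in others. In the draw of 1000 UMIs, 54.2% of female other macrophages held no Mt1 UMI, 28.0% held 1, 10.5% held 2 and 7.31% held 3 or more, with a highest value of 13. In male other macrophages the shares were 52.5%, 30.8%, 11.4% and 5.32%, with a highest value of 8. The variance over the mean, which is 1 when counts scatter by chance around 1 common level, was 2.23 and 1.3. Within other macrophages it was 4.35 and 1.81 (17 male cells) with low MHC class II, and 1.35 and 1.29 with high MHC class II. By cluster it was 2.41 and 1.11 (Aif1-led), 2.27 and 1.06 (C1qa-led), and 1.70 and 1.95 (Ms4a7-led). It was 1.08 and 1.65 in Lyve1-high cells. It was 1.21 and 3.28 in Aldh1a2-high cells and 4.25 and 2.57 over both kinds of dendritic cell. In dendritic cells the tenth of the cells richest in Mt1 held 66.4% and 58.2% of its UMIs before the draw, against 39.7% and 32.8% in other macrophages. Lymphocytes gave 1.102 and 0.988, and no lymphocyte in either library held more than 2 Mt1 UMIs per 1000.

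**Figure D3:**
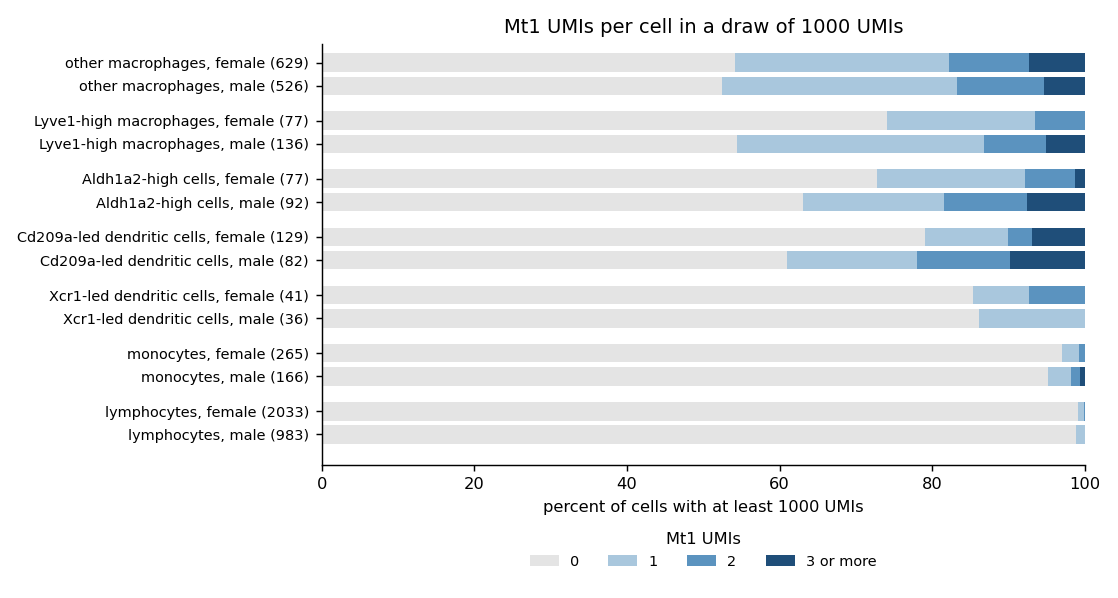
Percent of cells (horizontal axis) with 0, 1, 2 or 3 or more Mt1 UMIs in a draw of 1000 UMIs per cell, for 7 classes or subsets in each library, with the number of cells drawn in brackets. Of other macrophages 54.2% (female) and 52.5% (male) held none, against 99.2% and 98.8% of lymphocytes.

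Other macrophages with 2 or more Mt1 UMIs in the draw were set against those with none (112 against 341 female and 88 against 276 male cells). The summed count of the oxidative stress list, 11 genes of the NRF2 response such as Hmox1 and Prdx1, was higher in the Mt1-rich other macrophages of both libraries. It was 2.96 against 2.37 UMIs per 1000 in the female (1.25-fold, 1.09 to 1.42) and 3.01 against 2.28 in the male library (1.32-fold, 1.14 to 1.53). Prdx1, whose level is given further on, is a large part of this sum, and its members were not compared 1 by 1. The metal handling list gave 1.07 (0.901 to 1.28) and 1.03 (0.849 to 1.25), the glucocorticoid-induced list 0.997 (0.839 to 1.18) and 0.810 (0.631 to 1.03), and the dissociation list 1.21 (0.994 to 1.46) and 0.820 (0.638 to 1.04). MHC class II UMIs went in opposite directions, 1.13 (1.09 to 1.17) and 0.866 (0.837 to 0.896). The Mt1-rich cells had fewer UMIs before the draw, a median of 3126.5 against 4343 and 2773.5 against 3918.5. Cells with no Mt1 UMI were 50.6% and 43.6% of the Aif1-led, 61.2% and 61.1% of the C1qa-led and 47.8% and 55.2% of the Ms4a7-led cluster, whose median depths were 2431 and 2010, 5350 and 4996.5, and 4527.5 and 5517, so the groups compared differ in cluster makeup and in depth. The part of either in these ratios was not tested. In Lyve1-high cells, with 5 against 57 female and 18 against 74 male cells, the oxidative stress list gave 0.596 (0.235 to 1.26) and 1.13 (0.732 to 1.69), with intervals that include 1. The dissociation list gave 1.78 (0.999 to 2.98) and 1.69 (1.26 to 2.26) there, and MHC class II UMIs 1.51 (1.33 to 1.70) and 1.02 (0.925 to 1.12).

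Whether Mt1 and Mt2 were seen in the same cells was first asked over all macrophages together. Without equal depth, 39 of the 41 female and 37 of the 41 male macrophages with an Mt2 UMI also held an Mt1 UMI, against 71.7% and 76.0% of all macrophages. In the draw of 1000 UMIs, Mt2 was found in 2.74% of the 329 female macrophages with Mt1 and 1.76% of the 454 without, a difference of 0.973 points (-1.14 to 3.51). The male values were 3.47% of 346 and 1.23% of 408 cells, a difference of 2.24 points (0.0597 to 4.83). At a depth of 2000 UMIs the differences were 3.28 (0.953 to 5.70) and 2.32 points (-0.456 to 4.69). These shares rest on 17 cells with Mt2 in each library at the lower depth, and 1 of the intervals at each depth leaves out 0.

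Because a single random draw of so few UMIs scatters, the mean over all possible draws was computed exactly as well. It gave 3.35% against 0.811% in female macrophages (2.54 points) and 2.92% against 1.38% in male macrophages (1.54 points) at 1000 UMIs, and 3.18 and 3.24 points at 2000 UMIs. In Cd209a-led dendritic cells, 2 of 27 female cells with Mt1 held Mt2 and 1 of 102 without (6.43 points, -0.480 to 22.4). In the male library these were 6 of 32 and 2 of 50 (14.8 points, 1.09 to 31.6), and the means over all draws were 13.5 and 12.6 points. A second draw of 1000 UMIs gave 1.62 points (-0.145 to 4.17) in female and 1.29 points (-0.987 to 3.80) in male macrophages, and a draw of 500 UMIs 0.739 (-0.925 to 3.66) and 0.326 (-0.869 to 2.57). The differences were thus above 0 in all macrophages and in Cd209a-led cells of both libraries, but in macrophages at 1000 UMIs counting error covered them in both draws of the female library and in 1 of the 2 draws of the male library. Within other macrophages alone the differences were 1.95 (-0.376 to 4.75) and 1.64 points (-0.379 to 4.25) at 1000 UMIs and 3.61 (1.25 to 6.21) and 2.32 points (-0.834 to 4.96) at 2000 UMIs, with means over all draws of 2.36 and 1.09, and of 3.22 and 2.34. Within the Lyve1-high and Aldh1a2-high subsets the differences in the draw of 1000 UMIs had no common sign, and every interval included 0. In Lyve1-high cells they were -1.75 (-9.29 to 14.4) and 0.785 points (-7.09 to 9.64), and in Aldh1a2-high cells -5.36 (-14.6 to 10.5) and 10.04 points (-0.222 to 24.96), with means over all draws of 1.26 and 2.35 in the former and 6.79 and 4.20 in the latter. At 2000 UMIs these means were -1.06 and 9.27 in the former and 7.07 and 0 in the latter.

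**Figure D4:**
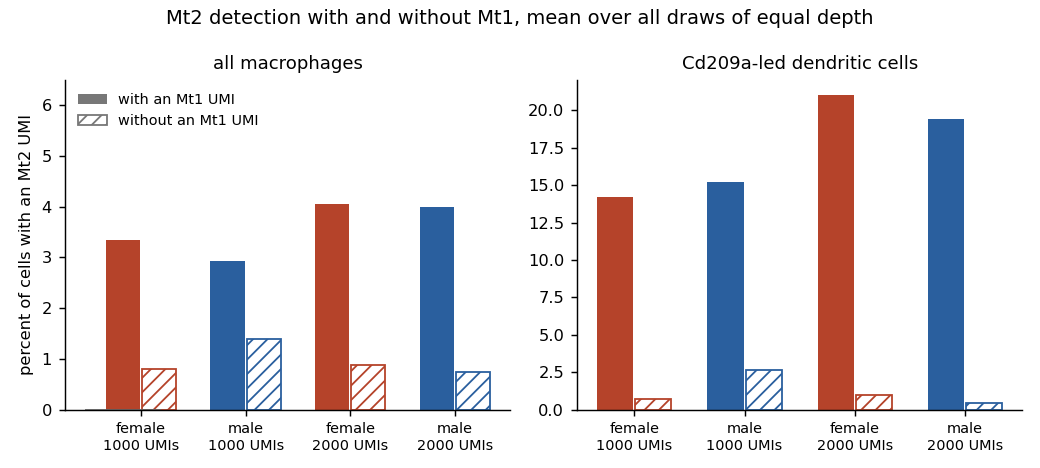
Percent of cells with an Mt2 UMI (vertical axes, of different range) among cells with (filled) and without (hatched) an Mt1 UMI, as the mean over all possible draws of 1000 or 2000 UMIs per cell, in all macrophages (left) and Cd209a-led dendritic cells (right). The filled bar exceeds the hatched bar in each of the 8 pairs, for example 3.35% against 0.811% in female macrophages at 1000 UMIs; no error is drawn, because the draws are of the same cells.

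Between the sexes, Mt1 over macrophages as a whole was nearly the same, though not in each cluster or subset. All macrophages together stood at 631 (605 to 658; 2146 UMIs in 822 cells) in the female and 656 CPM (627 to 685; 1979 UMIs in 797 cells) in the male library, a ratio of 0.963 (0.905 to 1.02). It was 0.934 (0.881 to 0.991) with the per-cell marker gate and 0.931 (0.874 to 0.993) without the 5 richest cells of each library. These intervals leave out 1, and a mitochondrial ceiling of 5% gave 1.002 (0.937 to 1.07). Other macrophages alone gave 0.995 (0.930 to 1.07), and those with high MHC class II 0.954 (0.885 to 1.03). Their clusters lay on both sides of 1, with 0.840 (0.743 to 0.951) in the Aif1-led cluster. The C1qa-led cluster gave 1.04 (0.933 to 1.15) and the Ms4a7-led cluster 1.16 (1.01 to 1.34). Beyond 1.5-fold lay 6.43% of the genes tested in all macrophages and 6.45% in other macrophages, and Mt1 was not among them. Mt2 was not either, at 1.17 (0.799 to 1.73; 66 and 50 UMIs) in all macrophages and 1.54 (0.947 to 2.58; 52 and 26 UMIs) in other macrophages, the latter with an interval that includes 1 and a value of 1.19 without the 5 richest cells of each library.

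Over all cells the ratio was lower, at 0.654 for Mt1 (0.619 to 0.691; 181 against 276 CPM) and 0.606 for Mt2 (0.457 to 0.804; 6.91 against 11.4), and both lay beyond 1.5-fold, as did 7.65% of the genes tested. Macrophages made up 22.3% of cells in the female library and 32.5% in the male library. With the classes of both libraries weighted to the same makeup, the ratio was 0.871 (0.823 to 0.922) for Mt1 and 0.822 (0.617 to 1.096) for Mt2.

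Outside the main macrophage population Mt1 was lower in the female library in several classes. In Cd209a-led dendritic cells the ratio was 0.629 (0.532 to 0.743), past 1.5-fold as 9.12% of the genes tested there were, and it was 0.581 without the 5 richest cells of each library. Mt2, with fewer than 50 UMIs in each library, gave 0.534 (0.312 to 0.908), and 0.679 (0.248 to 1.89) without those cells. Over both kinds of dendritic cell Mt1 gave 0.685 (0.586 to 0.801; 8.92% of genes past the bound). In monocytes, where 6.28% of genes were past the bound, Mt1 had fewer than 50 UMIs in each library and gave 0.532 (0.340 to 0.832), which became 0.852 (0.419 to 1.78) without the 5 richest cells. Lyve1-high cells gave 0.679 (0.538 to 0.852), short of the bound that 10.1% of genes passed there, and Aldh1a2-high cells 0.758 (0.607 to 0.942), where 6.05% passed. In lymphocytes Mt1 gave 0.853 (0.600 to 1.23), and Mt2 0.195 (0.0538 to 0.595) from 5 and 12 UMIs.

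**Figure D5:**
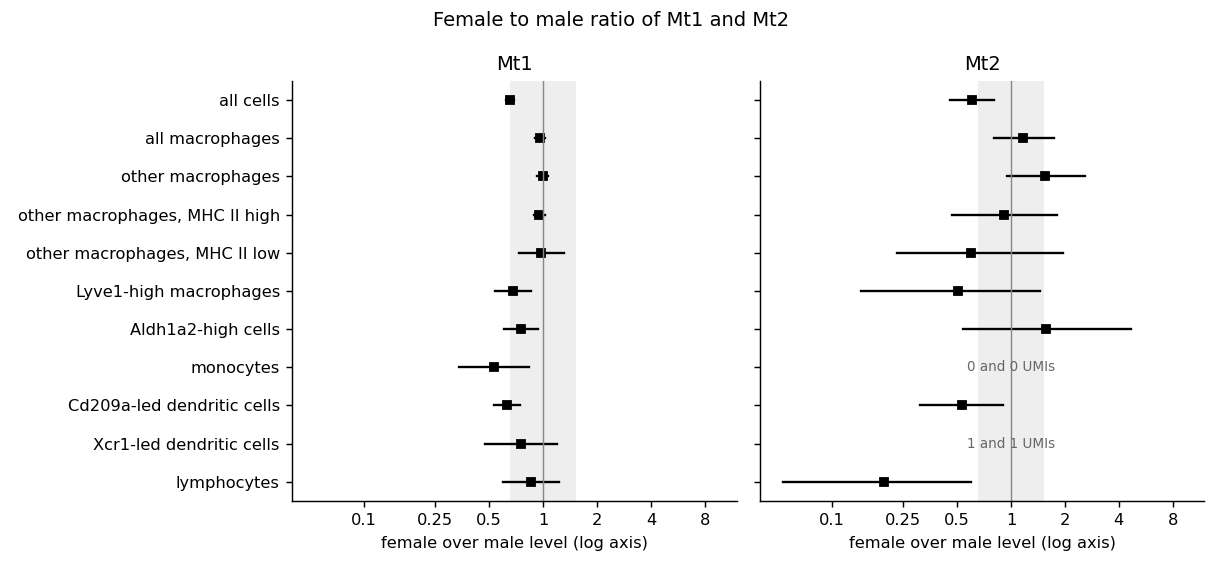
Ratio of the female to the male level (log axes) of Mt1 (left) and Mt2 (right) in 11 classes or subsets, with exact 95% counting intervals; the grey band marks ratios within 1.5-fold, and counts stand in place of a ratio where a library held fewer than 5 UMIs. Mt1 lies at 0.963 in all macrophages and 0.629 in Cd209a-led dendritic cells.

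Genes that handle metal with the metallothioneins were counted as a list of 25, of which 14 could be tested between the sexes in macrophages. Of these, 1 was higher in the female library past 1.5-fold (Slc31a1, the copper importer CTR1, 29.1 against 18.6 CPM) and 1 lower (Slc30a1, the zinc exporter ZnT1 and like Mt1 a target of MTF1, 17.1 against 28.2). These 2 of 14 stand beside 6.43% of all genes tested, and nothing is read from so small a count. The median log2 ratio of the list was -0.27, against -0.03 over all genes tested. Slc30a1 in other macrophages alone, at 15.4 and 22.2, was under the count minimum. Mtf1 itself was at 12.9 and 14.9 CPM in other macrophages and 17.3 and 17.1 in lymphocytes, so the gene of the metal sensor did not share the class pattern of Mt1.

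Between other macrophages and lymphocytes, 7 of 19 metal handling genes tested were higher past 1.5-fold in macrophages of the female library and 2 lower, and 6 of 13 and 0 in the male library, against the 20.7% and 20.3% of all genes that were higher. The share of all genes that were lower is not given, so nothing is read from the lower counts. Atox1, the copper chaperone of the secretory pathway, stood at 913 and 909.8 in other macrophages against 238 and 244 in lymphocytes. It was about as high in female monocytes (905), numerically lower in male monocytes (779), and higher in Xcr1-led dendritic cells (1848 and 1723). In all of these Mt1 was low. The zinc importer Slc39a1 stood at 86.0 and 108 against 32.9 and 39.9. Of the oxidative stress list, 7 of 9 genes tested were higher in female and 4 of 7 in male macrophages, among them Hmox1, the heme-degrading enzyme, at 129 and 81.5 against 3.99 and 4.14, and Prdx1, a peroxidase, at 1791 and 1706 against 428 and 386.

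Of the 13 glucocorticoid-induced genes listed, 12 could be tested between the sexes in macrophages, and 7 were higher in the female library past 1.5-fold, 0 were lower and the other 5 did not pass. Of all 6906 genes tested there 6.43% lay past the bound, 180 of them higher and 264 lower in the female library. The median log2 ratio of the list was 0.74, against -0.03 over all genes. Fkbp5, a co-chaperone of the glucocorticoid receptor whose gene overlaps other annotated genes so that its count is uncertain, stood at 133 against 51.3 CPM (2.60-fold, 2.16 to 3.13), Tsc22d3, which encodes GILZ, at 366 against 212 (1.73-fold, 1.57 to 1.90), and the transcription factor gene Klf9 at 69.1 against 22.5 (3.07-fold, 2.33 to 4.08). Mt1 gave 0.963 in the same cells. In other macrophages alone 8 of 12 genes of the glucocorticoid list were higher and 0 lower, beside 6.45% of all genes past the bound. The 2 small subsets did not share this. In Lyve1-high cells 0 of 4 genes tested passed either way, beside 10.1% of all genes. In Aldh1a2-high cells 0 of 4 were higher and 1, Nfkbia, was lower, beside 6.05%. The list medians there were -0.28 and -0.14. Of 12 genes of the dissociation response, 0 were higher and 5 lower in the female library over all macrophages (Fos at 175 against 326), beside the same 6.43% of all genes, and in other macrophages alone, where 6.45% of all genes were past the bound, 0 of 11 lay past it in either direction. Of 9 oxidative stress genes in all macrophages 0 lay past it. Genes of the dissociation list were also lower in the female library in classes where Mt1 was lower. Past the bound were 4 of 10 genes tested in monocytes and 3 of 9 in Cd209a-led dendritic cells, all lower. In Aldh1a2-high cells 4 of 9 and in Lyve1-high cells 2 of 8 were past it, again all lower. Of all genes tested, 6.28%, 9.12%, 6.05% and 10.1% lay past it in these classes, in that order. Any link to the Mt1 ratios was not tested.

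The genes with the pattern most like Mt1 were sought by Pearson's r of log2(CPM + 10) over 22 profiles, 11 classes or subsets in each library, among 8529 genes. The profiles share 2 libraries and differ in depth, so r is given as a description. For Mt1 they were Clec4b1 (0.966), a C-type lectin, Shtn1 (0.954), Atpif1 (0.950), an inhibitor of the mitochondrial ATP synthase, H2-DMb1 (0.930), which loads peptide on MHC class II, and Tubb2a (0.926). Mt2 came at rank 30 with 0.872. For Mt2 the list was Rnf144b (0.901), Sult1a1 (0.873), Mt1 itself at rank 3 (0.872), Ccnd1 (0.864) and Atpif1 (0.856). Clec4b1, like Mt1, stood high in other macrophages (142 and 230 CPM) and dendritic cells (155 and 223), lower in monocytes (28.5 and 60.3) and near 0 in T cells (2.39 and 3.48).

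The other members of the family were nearly silent. Mt4 gave 0 UMIs in both libraries. Mt3 gave 8 female and 17 male UMIs, of which 6 and 9 lay in T cells and 1 in each library in other macrophages.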

How the data were processed

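CD45+ adrenal cells were measured in 1 female and 1 male library. The deposited values are raw UMI counts per gene and barcode. The authors aligned reads to mm10 and counted them with Cell Ranger 4.0.0 (per their notes and methods). Their clustering (Seurat 3.1.0) is not in these counts, and whether their barcode filter (DropletUtils 1.4.3) had been applied to them is not known. The stated mitochondrial ceiling of 1.2% leaves 333 of 3963 female and 366 of 2685 male barcodes, far fewer cells than the study kept in either library, so the ceiling was not the one applied on the scale used here, and 15% was used, with at least 200 genes per barcode. Doublets were removed at 0.8% per 1000 barcodes by Scrublet score (Scanpy 1.11.5; 123 and 53 barcodes), because its automatic threshold marked 1 and 8. The depth was 16218309 female and 9512670 male UMIs.

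Clustering used sctransform 0.4.2 within Seurat 5.3.0 (2000 features, 20 principal components, resolution 1) with 41 genes held out, including both members, the MHC class II genes and the adrenal endocrine genes. The members, marker lists and gene lists were chosen with earlier results of these data known, and the rule that scores a cluster's name was set after the clusters were seen. A name needed at least 3 markers raised 2-fold. Low MHC class II meant 9 or fewer UMIs of 4 genes per 1000, from an Otsu threshold among macrophages, and 44 female and 16 male cells lay near it. CPM values are summed counts with exact Poisson intervals, shares have Clopper-Pearson and differences Newcombe intervals, and ratios have exact conditional binomial intervals, all at 95%, for counting error only. Genes with at least 50 UMIs in 1 of the 2 sides compared were set against 1.5-fold, with the interval off 1. Named genes were both members, list members a result turns on, and the 5 genes most alike by correlation, among genes with 200 UMIs and classes with 20 cells. With 1 library per sex no test across animals was possible. The ratio rule and the draws were tested on simulated counts. Alternatives covered the mitochondrial ceiling, doublets, a per-cell marker gate, the draw, means over cells and leaving out the 5 richest cells. Those 5 cells are a larger part of a small class, so leaving them out lowers its level more than that of a large class. The mean over all draws was added after seeing the data.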

Additional observations from a re-analysis of the deposited data

Results flagged for a closer look

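A cluster without a name held Mt1 above the lymphocyte level. It had 69 female and 142 male cells with a median of 796 and 675 UMIs, and Mt1 stood at 269.7 CPM in the female (24 UMIs) and 193 in the male library (23 UMIs), with 0 and 2 UMIs of Mt2. It entered only totals over all cells and the side of all other cells in the Mt2 share, and 6 of the 11 macrophage markers were raised in it. Mt3 was counted in 8 UMIs of the female and 17 UMIs of the male cells, over the floor of 3 counts, mostly in T cells, and 4 of the male UMIs lay in 1 cycling cell.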

How the results depend on the processing

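Of 176 values recomputed under alternatives for 18 results, 146 moved by less than their counting interval, 29 moved further and 1 whose interval left out 1 changed side. Some ratios whose interval included 1 crossed it: the Mt2 ratio between the sexes in macrophages (0.902 with the marker gate, 0.929 over cells, 0.911 without 5 cells), the Mt2 ratios of Aldh1a2-high (female 0.976 without 5 cells, male 0.807 under a 1.2% ceiling) and female Lyve1-high cells (0.687 with the gate), and narrowly the Mt1 ratios between the sexes in macrophages (1.002) and of male Lyve1-high cells (up to 1.017). The ceiling of 1.2% mitochondrial UMIs left 62 female and 94 male macrophages, of which 6 and 2 were Lyve1-high. Under it the ratio at equal class makeup was 0.759 for Mt1 and 0.591 for Mt2, and the Mt2 ratio between the sexes in macrophages 1.82. The Lyve1-high to other ratio of Mt1 was 0.496 in the female and 0 in the male library, and that of Mt2 was 0 in both, which reverses the male value for want of cells. The Aldh1a2-high ratio was 0.949 for Mt1 and 0 for Mt2 in the female library, and the female co-detection difference was 8.33 points. Classes from a per-cell marker gate gave Aldh1a2-high ratios of Mt1 of 0.827 and 0.996. Means over cells gave Mt1 ratios of 0.814 (male, Lyve1-high) and 0.520 (female, Aldh1a2-high) and an Mt2 ratio of 4.38 (male, Aldh1a2-high). Without the 5 richest cells of each class the Aldh1a2-high ratio of Mt1 was 0.520 and 0.700. Without a draw the female co-detection difference was 5.76 points. The share of female macrophages with Mt1 in a draw of 1000 UMIs, 42.02%, was 21.8% (11.8 to 35.0) under the 1.2% ceiling, 36.8% with the marker gate (male 41.98% in place of 45.9%) and 36.8% in a second draw, and the mean over all draws, chosen after seeing the data, was 41.1%. The cause of these shifts was not tested. Mt2 differences rest on few counts, and where a class gave 0 UMIs Mt2 was not detectable at this depth. No paired analysis was possible because each sex has 1 library.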
